A study of Mus musculus with 30 samples.

Results

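The comparison described here is between day 15 (D15) and day 12 (D12) of retinal organoids grown from mouse induced pluripotent stem cells, the interval taken here as that of the first photoreceptor precursors. It uses 6 of the 30 libraries of a time course, 3 from D15 and 3 from D12, and covers all 45594 genes of the deposited count table, of which 19897 had enough counts to be tested. The D15 libraries were made at day 15 of differentiation and the D12 libraries at day 12. Both days used the same wild-type line, which carries the Nrl-GFP reporter, a green fluorescent protein driven by the promoter of the rod gene Nrl. The line is 1 clone, obtained from embryonic day 14.5 fibroblasts with lentiviral, doxycycline-inducible Oct3/4, Sox2, Klf4 and c-Myc, so the replicates share a genotype and the reprogramming transgenes. At both days the organoids, made by a modified HIPRO protocol, were in DMEM/F12 with N2 supplement, 1 mM taurine, 500 nM 9-cis retinal and 100 ng/ml IGF1 under 20% oxygen. Each library was made from neural retina dissected out of 12 pooled organoids, from 100 ng of RNA with an integrity number above 8, with a stranded mRNA kit.

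Photoreceptors are the light-sensing rods and cones of the retina. They arise from dividing, multipotent progenitors that also give the ganglion, horizontal, amacrine and bipolar neurons and the Müller glia. A progenitor leaving the cell cycle passes through a neurogenic state marked by proneural factors and Notch ligands. In the cells that become photoreceptors, Otx2 switches on Crx, and these homeodomain factors act on most photoreceptor genes, while Nrl directs the rod fate and Thrb and Rxrg belong to early cones.

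The 6 libraries held 18074073 to 22090186 estimated counts, within the 16773624 to 24526704 of all 30 libraries. Replicate 2 stood apart at both days, so the main lists and their leading genes are also given in replicates 1 and 3 and in replicate 2. Of the counts of the ribosomal protein gene Rpl3 and its copies in the annotation, the copies held 86.4%, 21.1% and 85.9% in D15 replicates 1, 2 and 3, against 84.2%, 12.0% and 86.5% in D12 replicates 1, 2 and 3. The mitochondrially encoded share of counts was 1.99%, 3.26% and 2.81% at D15 and 2.68%, 5.03% and 3.90% at D12, and its part in the results was not tested. Levels below are CPM (estimated counts scaled to one common library size) given for replicates 1, 2 and 3 in that order, and they are not divided by gene length, so they compare days and not genes. A gene is called where edgeR's quasi-likelihood test, fitted over all 30 libraries and adjusted by Benjamini-Hochberg over the 19897 genes, gave an adjusted p below 0.05, and "rose" or "fell" is used only of called genes. Changes are log2 of D15 over D12 with their standard errors (SE). Being bulk libraries, they cannot tell more cells of a type from more RNA per cell.

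Between the days 1475 genes (7.41% of those tested) were called, of which 1020 (5.13%) rose and 455 (2.29%) fell at D15. The median change over all tested genes was 0.002. These shares and this median are the background for the list counts and medians below. All 3 D15 libraries lay above all 3 D12 libraries in 2824 genes (14.2%) and below them in 2214 (11.1%). In replicates 1 and 3 alone, 735 genes (3.69%) were called, of which 542 (2.72%) rose and 193 (0.97%) fell. Here and below, such calls come from a fit of all 30 libraries that gave replicate 2 of D10 to D25 its own means. The spread in that fit was pooled over all libraries, replicate 2 included. With replicate 2 left out of the fit at every day, 450 genes rose and 117 fell. Replicate 2 alone, with 1 library a day and the spread of the other groups assumed for it, gave 121 (0.608%) rises and 37 (0.186%) falls. With 1 library left out, the rises over all 3 replicates were 641 to 791 and the falls 164 to 333, the fewest of both without D15 replicate 3, followed by D12 replicate 3 among the rises (662) and D15 replicate 1 among the falls (238). With the library sizes left without a composition factor the split was 335 to 56 in replicates 1 and 3 and 92 to 14 in replicate 2.

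The 10 steepest rises among genes with a mean of at least 10 CPM and no overlap between the days were Tmem92, Gjd2, Rbp3, Plekhb1, Epha8, Pla2g2f, Gngt2, Arhgef37, Tulp1 and Rp1l1, and 4 of these, Rbp3, Gngt2, Tulp1 and Rp1l1, belong to the photoreceptor genes described below. Plekhb1 (chr7:100642892-100662414, GRCm38), a pleckstrin homology protein known from photoreceptors, stood at 60.1, 78.9 and 50.8 CPM in the D15 libraries, against 7.06, 5.84 and 4.97 CPM in the D12 libraries. Its change of 3.40 (SE 0.20) had the smallest adjusted p of the 10, 4.82e-11, with 3.20 in replicates 1 and 3 and 3.75 in replicate 2. Epha8, an ephrin receptor of growing axons, had 111, 131 and 115 CPM at D15 and 12.28, 13.5 and 9.83 CPM at D12, a change of 3.32 (SE 0.36, adjusted p 1.35e-06). Gjd2, which encodes the gap junction protein connexin 36 of retinal neurons, had 12.5, 11.8 and 8.26 CPM at D15, against 0.618, 1.14 and 0.795 CPM at D12. By the rule that chose these 10 genes, every D15 library held more of them than every D12 library, also where they are described again below. The change was 3.68 (SE 0.29, adjusted p 2.50e-08) for Gjd2 and 4.43 (SE 0.37, adjusted p 3.18e-08) for Tmem92, which had 9.59, 12.15 and 12.21 CPM at D15 and 0.503, 0.604 and 0.430 CPM at D12. The remaining 2 were Pla2g2f, a secreted phospholipase A2, with 3.17, and Arhgef37, a guanine nucleotide exchange factor, with 3.15. Arhgef37 ranged from 2.82 to 3.76 with 1 library left out, the highest without D12 replicate 3. In replicates 1 and 3 and in replicate 2, the changes were 4.51 and 4.29 for Tmem92, 3.88 and 3.38 for Gjd2, 3.35 and 3.27 for Epha8, 3.33 and 2.99 for Pla2g2f and 2.63 and 4.54 for Arhgef37.

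The 10 steepest falls by the same rule were Lin28a, Gli1, Tspan10, Mfrp, Clic6, Mitf, Myc, Trpm1, Pmel and Vat1l. The RNA-binding protein Lin28a is described with the progenitors, the hedgehog target Gli1 with its pathway, the pigment cell genes Tspan10 and Pmel with the pigmented tissue, Mitf with the ciliary margin and Trpm1 with the bipolar cell genes. Mfrp, a membrane protein of pigment epithelium and ciliary body, had 5.79, 3.07 and 3.72 CPM at D15, against 20.9, 16.1 and 24.0 CPM at D12, a change of -2.27 (SE 0.48, adjusted p 0.0037). Vat1l had 10.6, 6.99 and 9.85 CPM at D15 and 25.8, 53.3 and 27.2 CPM at D12 (-1.95, SE 0.29, adjusted p 7.39e-05). The rule fixed the lack of overlap of these 10 falls, here and where they are described below. Mfrp changed by -2.24 in replicates 1 and 3 and by -2.39 in replicate 2, and Vat1l by -1.37 and -2.93. The calls of Myc and Clic6 depended on single libraries and on the replicate class. The growth regulator Myc (-2.06, adjusted p 0.00431) had 75.8 CPM in D12 replicate 3 and missed the threshold without it (-1.12, adjusted p 0.0927) and with replicate number as a block in the 6 libraries (0.0596). Its change was -2.89 in replicates 1 and 3 (adjusted p 0.00266) and -0.36 in replicate 2 (0.889). The chloride channel protein Clic6 (-2.22, adjusted p 0.0182) missed the threshold without D15 replicate 2, D15 replicate 3 or D12 replicate 2, with an adjusted p of up to 0.164, and with that block (0.0561). It changed by -4.09 in replicate 2 (adjusted p 0.0176) and was not called in replicates 1 and 3 (-1.12, adjusted p 0.278).

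**Figure D1:**
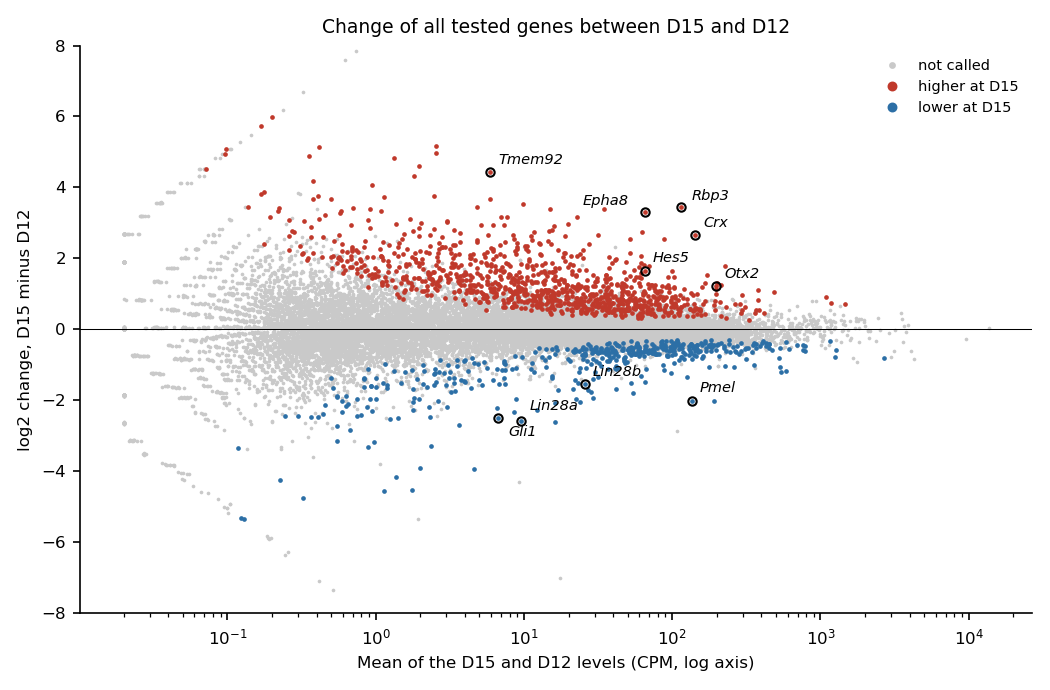
Each point is 1 of the 19897 tested genes, with its mean level in the D15 and D12 libraries on the x axis (CPM, log axis, means under 0.02 CPM drawn at 0.02) and its log2 change, D15 minus D12, on the y axis. Red points rose at D15, blue points fell, grey points were not called, circled genes are named, and 3 genes lie outside the y axis.

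Of 20 listed transcription factors of photoreceptors, 19 were tested, 12 rose and none fell, and the median change over the 19 was 1.22. Their median was 1.30 in replicate 2 and 1.24 in replicates 1 and 3. The homeodomain factor Otx2 (chr14:48657679-48667644) had 266, 296 and 265 CPM at D15 and 113, 130.2 and 112 CPM at D12, a rise of 1.22 (SE 0.16, adjusted p 2.00e-05). Its target Crx (chr7:15865947-15879968) had 240.0, 229 and 274 CPM at D15, against 45.6, 46.7 and 25.5 CPM at D12, and rose by 2.65 (SE 0.32, adjusted p 4.49e-06). Both genes were higher in each D15 library than in any D12 library. For Crx the change was 2.85 in replicates 1 and 3 (adjusted p 0.000415) and 2.29 in replicate 2 (adjusted p 0.0679).

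Prdm1, which holds Otx2-expressing cells to the photoreceptor rather than the bipolar fate, had 83.9, 103 and 90.8 CPM at D15 and 32.5, 41.9 and 18.0 CPM at D12 (1.59, SE 0.28, adjusted p 0.000605). The basic helix-loop-helix factor Neurod1, needed for photoreceptor differentiation and survival, had 108, 158 and 127 CPM at D15, against 48.9, 66.7 and 49.5 CPM at D12 (1.25, SE 0.24, adjusted p 0.00149). Neither overlapped between the days, and for both D15 replicate 2 was the highest library. The LIM homeodomain gene Lhx4 rose by 2.13 (SE 0.27, adjusted p 1.04e-05), with 17.7, 27.7 and 17.3 CPM at D15 and 4.63, 6.29 and 3.34 CPM at D12. Mef2d, a partner of Crx on photoreceptor enhancers, rose by 0.94 (SE 0.17, adjusted p 0.000629). The changes in replicates 1 and 3 and in replicate 2 were 1.79 and 1.30 for Prdm1, 1.26 and 1.25 for Neurod1 and 2.13 and 2.14 for Lhx4.

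Among factors of 1 photoreceptor class, the early cone receptor Rxrg had 22.26, 19.9 and 19.8 CPM at D15 and 5.69, 6.39 and 5.35 CPM at D12, a rise of 1.83 (SE 0.21, adjusted p 3.72e-06). The rod gene Nrl (chr14:55518978-55524981), whose promoter drives the reporter of this line, had 3.19, 8.50 and 4.42 CPM at D15, against 0.484, 0.988 and 0.461 CPM at D12. It rose by 3.06 (SE 0.43, adjusted p 4.51e-05), and within each day replicate 2 was the highest library. Samd7, a Polycomb-associated protein of rods, had 3.78, 5.58 and 2.02 CPM at D15 and 0.168, 0.138 and 0.108 CPM at D12 (4.596, SE 0.58, adjusted p 1.04e-05). Nr2e3, which represses cone genes in rods, was at 0.337, 0.954 and 0.432 CPM at D15, against 0, 0.122 and 0 CPM at D12, with an adjusted p of 0.0816. Rxrg changed by 1.93 in replicates 1 and 3 and by 1.63 in replicate 2, Nrl by 2.99 and 3.12, and Samd7 by 4.23 and 5.12.

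The calls of 9 of the 12 factors held with each of the 6 libraries left out in turn. Of the 12, 10 were also called in replicates 1 and 3 alone and 3 in replicate 2 alone. The cone thyroid receptor Thrb had 100.4, 135 and 108 CPM at D15 and 56.2, 51.1 and 55.7 CPM at D12 without overlap, but its rise of 1.08 (adjusted p 0.024) missed the threshold without any 1 library other than D15 replicate 1, with an adjusted p of up to 0.097. Isl2 (2.45, adjusted p 0.0106) missed it without D12 replicate 3 (adjusted p 0.0634), and the nuclear receptor Nr1d1 (1.00, adjusted p 0.0216) missed it without D15 replicate 3 or any 1 D12 library (up to 0.167). The 7 factors that did not pass were Nr2e3, Rorb, Samd11, Sall3, Casz1, Tbx2 and Esrrb. Rorb, a nuclear receptor upstream of Nrl, had 217, 225 and 248 CPM at D15 and 146, 183 and 118 CPM at D12 (0.63, adjusted p 0.0683).

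The days around this interval place the rises. Crx averaged 10.35 ± 4.94 CPM at D7 and 41.7 ± 11.9 CPM at D10 (SD, n = 3 each), and 469 ± 113 CPM at D18, 666 ± 195 CPM at D22, 1084 ± 120.1 CPM at D25 and 1214 ± 132 CPM at D32. Its D10 level thus lay within the range of the D12 libraries. Otx2 was present from early on, at 417 ± 38.2 CPM at D4 and 411 ± 48.4 CPM at D7, and stood at 208 ± 11.3 CPM at D10 and at 458 ± 60.1 CPM at D18. Nrl averaged 36.3 ± 11.7 CPM at D18 and 881 ± 252 CPM at D25, so its D15 level was small beside its later one. Prdm1 averaged 13.1 ± 3.46 CPM at D10, 170.4 ± 22.4 CPM at D18 and 33.3 ± 5.74 CPM at D32.

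Of 37 listed early photoreceptor genes 36 were tested, 18 rose, 1 fell and 17 were not called, with a median of 1.94. The median was 1.78 in replicates 1 and 3 and 2.13 in replicate 2, and of the 19 calls 17 were also made in replicates 1 and 3 alone and 11 in replicate 2 alone. Their summed level was 592, 804 and 621 CPM at D15, against 127, 125 and 86.5 CPM at D12. Of the 36 genes, 28 had a mean of at least 1 CPM on either day, so these medians include ratios of very low levels. With limma on the deposited CPM plus 1, the median over all 3 replicates was 0.86. In replicates 1 and 3, 24 of the 36 changes were above 0, and in replicate 2, 33 were. Rbp3 (chr14:33954022-33964216), which encodes the retinoid-binding protein of the matrix around photoreceptors, had 183, 265 and 181 CPM at D15 and 19.3, 23.6 and 14.3 CPM at D12. It rose by 3.46 (SE 0.27, adjusted p 1.69e-08), by 3.44 in replicates 1 and 3 and by 3.49 in replicate 2. Every D15 library lay above every D12 library. Rbp3 averaged 642 ± 172 CPM at D18 and 5779 ± 1112 CPM at D32 (SD, n = 3 each). The outer segment cadherin Cdhr1 had 138, 169.9 and 143 CPM at D15, against 31.7, 28.3 and 16.9 CPM at D12 (2.55, SE 0.24, adjusted p 1.74e-07).

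Genes of the cone phototransduction cascade were among the rises. The cone transducin subunit Gngt2 had 35.9, 42.0 and 46.2 CPM at D15 and 5.91, 5.13 and 2.67 CPM at D12 (3.17, SE 0.40, adjusted p 9.77e-06). Gnb3, the transducin subunit of cones and ON bipolar cells, had 51.1, 59.8 and 52.4 CPM at D15, against 11.8, 8.23 and 5.44 CPM at D12 (2.67, SE 0.30, adjusted p 1.89e-06). The cone phosphodiesterase subunit Pde6c had 9.33, 18.4 and 10.19 CPM at D15 and 1.93, 3.75 and 1.19 CPM at D12 (2.46, SE 0.44, adjusted p 0.000766). None of the 3 overlapped between the days. In replicates 1 and 3 and in replicate 2 they changed by 3.24 and 3.03 for Gngt2, 2.57 and 2.86 for Gnb3 and 2.64 and 2.30 for Pde6c. The cone transducin subunit Gnat2 (2.10, adjusted p 0.00963) missed the threshold without D12 replicate 2 or D12 replicate 3 (up to 0.0646), and the guanylate cyclase activator Guca1a (1.94, adjusted p 0.0282) missed it without D15 replicate 1, D15 replicate 3, D12 replicate 1 or D12 replicate 2 (up to 0.123). Not all cone genes of the list rose, as Arr3, Cnga3 and Pde6h were not called.

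Structural and transport genes of photoreceptors were also among the rises. Tulp1, which carries proteins toward the outer segment, had 27.8, 41.3 and 36.3 CPM at D15 and 4.78, 4.39 and 4.33 CPM at D12 (2.96, SE 0.30, adjusted p 5.19e-07). Slc17a7, the vesicular glutamate transporter of photoreceptor synapses, had 27.2, 35.2 and 22.35 CPM at D15, against 2.92, 3.62 and 4.77 CPM at D12 (2.91, SE 0.23, adjusted p 2.17e-08). The axonemal protein Rp1l1 had 12.8, 14.4 and 11.7 CPM at D15 and 1.72, 2.27 and 0.967 CPM at D12 (2.95, SE 0.32, adjusted p 1.98e-06). None of these overlapped between the days. Tulp1 changed by 2.81 in replicates 1 and 3 and by 3.23 in replicate 2, Slc17a7 by 2.70 and 3.27, and Rp1l1 by 3.15 and 2.66. Prph2, the disc rim protein peripherin, was at 3.23, 9.47 and 2.28 CPM at D15 and 0.239, 0.140 and 0 CPM at D12, a rise of 5.16 that stood at 4.31 without D15 replicate 2, 5.85 without D12 replicate 1 and 4.66 without D12 replicate 3 and was called in each case. Impg2, Kcnv2, Pdc, Rd3, Mpp4, Aipl1 and Cngb3 rose by 1.65 to 2.79. With 1 library left out, the phototransduction regulator Pdc (2.63) ranged from 2.25 to 3.33 and Rd3 (2.38) from 2.05 to 3.03. Both were highest without D12 replicate 2.

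The rod genes Nrl and Samd7 rose, as given above, while the rod transducin Gnat1, the arrestin Sag and the pan-photoreceptor gene recoverin (Rcvrn) did not pass the test. Rcvrn was at 0.0515, 0.162 and 0 CPM at D15 and 0.0442, 0.103 and 0.0566 CPM at D12. The days overlapped for Gnat1 (0.574, 1.54 and 0.652 CPM at D15, and 0.901, 1.64 and 1.39 CPM at D12) and for Sag (5.84, 7.40 and 5.28 CPM at D15, and 6.34, 5.84 and 5.55 CPM at D12). The single listed gene that fell was Ddc, the dopamine-synthesis enzyme aromatic amino acid decarboxylase (-0.86, adjusted p 0.0288), which missed the threshold without D15 replicate 3, D12 replicate 2 or D12 replicate 3 (up to 0.176) and with replicate number as a block in the 6 libraries (0.125). Crx was already present at D12 and D10, as given above, which limits the name of first precursors.

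**Figure D2:**
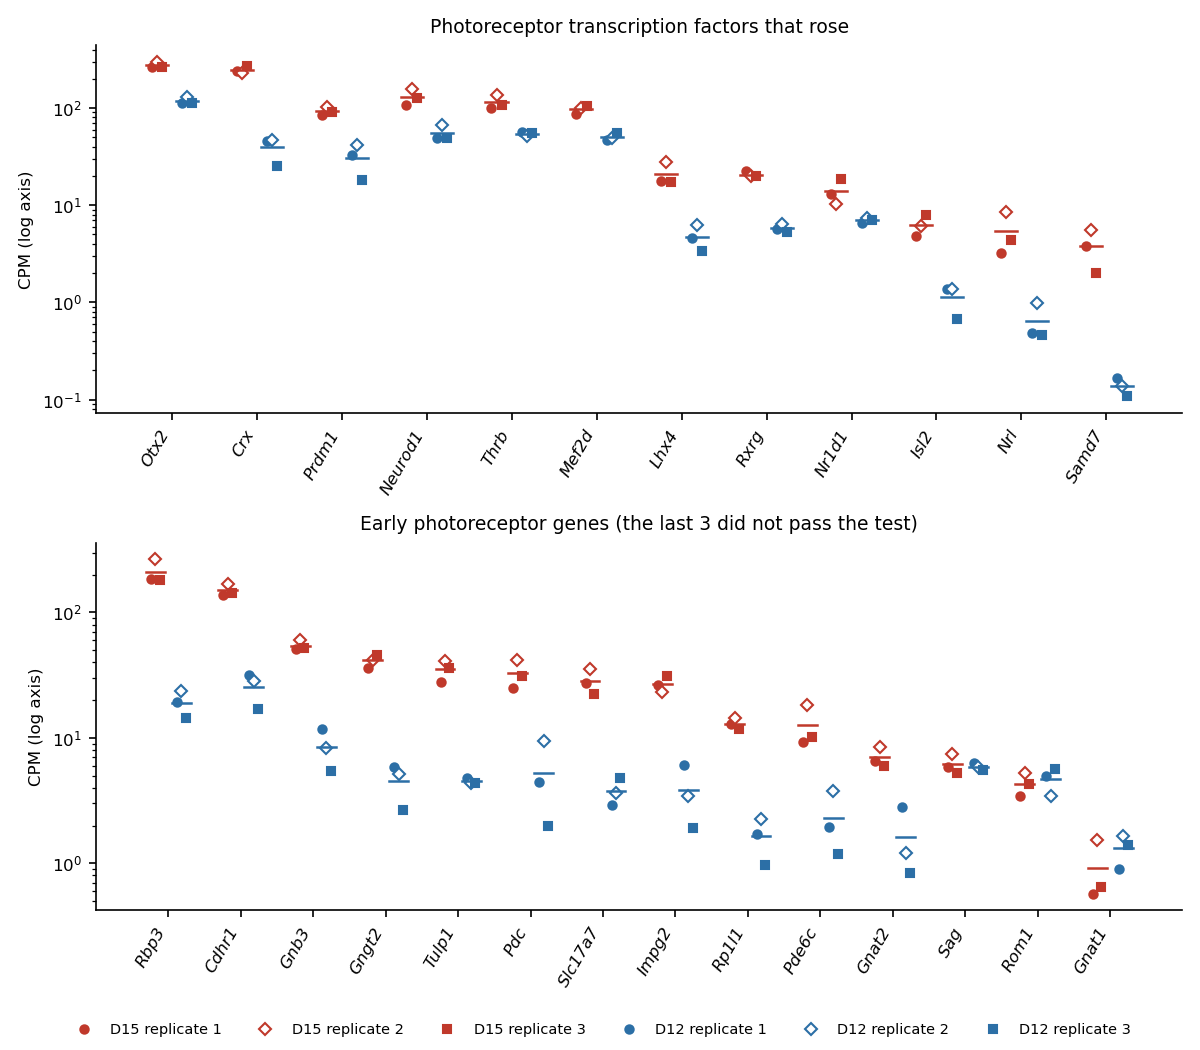
CPM on a log axis for the 12 photoreceptor transcription factors that rose (top) and for 11 early photoreceptor genes that rose followed by Sag, Rom1 and Gnat1, which were not called (bottom). Each gene has its D15 libraries (red) left of its D12 libraries (blue), replicate 2 is the open diamond and the bars are means, and the days separate in each of the called genes and overlap in the last 3.

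The promoters of 3 of these genes are shown because Otx2 and Crx, which rose here, are known to bind the letters TAATCC, and because the genes span factors and an early photoreceptor gene. All 3 hold these letters, which were in only 4 of 13 called early photoreceptor promoters and 3 of 12 called factor promoters. The promoters shown are RefSeq sequences on GRCm38.p6, from 250 bases before to 50 bases after the annotated start of the gene, in the direction of transcription. Capitals mark TAATCC or its reverse complement GGATTA.
Rbp3, chr14:33953753-33954052, plus strand: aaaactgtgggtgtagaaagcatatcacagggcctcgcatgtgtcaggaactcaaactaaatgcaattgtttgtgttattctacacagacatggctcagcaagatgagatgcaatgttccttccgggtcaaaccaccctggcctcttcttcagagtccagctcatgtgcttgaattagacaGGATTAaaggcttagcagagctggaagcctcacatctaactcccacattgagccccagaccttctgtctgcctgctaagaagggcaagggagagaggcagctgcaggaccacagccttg
Crx, chr7:15879906-15880205, minus strand: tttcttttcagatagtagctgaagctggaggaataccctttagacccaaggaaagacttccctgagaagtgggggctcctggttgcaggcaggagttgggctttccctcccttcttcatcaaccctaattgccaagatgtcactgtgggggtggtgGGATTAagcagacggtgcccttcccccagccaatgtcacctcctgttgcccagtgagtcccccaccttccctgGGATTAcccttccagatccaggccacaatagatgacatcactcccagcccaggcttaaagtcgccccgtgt
Samd7, chr3:30746043-30746342, plus strand: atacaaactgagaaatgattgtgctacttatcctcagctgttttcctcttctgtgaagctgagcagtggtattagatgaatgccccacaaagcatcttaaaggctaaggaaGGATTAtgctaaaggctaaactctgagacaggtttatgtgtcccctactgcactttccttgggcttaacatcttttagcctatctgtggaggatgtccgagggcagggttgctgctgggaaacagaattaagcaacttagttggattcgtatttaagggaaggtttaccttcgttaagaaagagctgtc

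The match in Rbp3 began at -69 from the start, those in Crx at -94 and -21, and that in Samd7 at -139. On either strand TAATCC was present in 1935 of 27025 promoters of this length (7.16%). Of the called early photoreceptor genes 13 had a promoter sequence and 4 of these held it (30.8%, exact 95% interval 9.09% to 61.4%), namely Gnat2, Aipl1, Guca1a and Rbp3, against 2 of 10 that were not called (20%). Of the 12 called transcription factors 3 held it (25%), namely Crx, Thrb and Samd7, against 2 of the 5 not called (40%). It was in 0 of 10 called neurogenic genes. The E-box letters CAGCTG, in 16.1% of all promoters, and CAGATG, in 17.2%, were each in 3 of the 13 early photoreceptor promoters (23.1%) and in 1 of the 12 factor promoters (8.33%). A match describes these letters in this window and not a bound site. The list was chosen by hand, so its interval covers counting error only and is no test against all promoters.

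Of 25 genes of neurogenic precursors 15 rose and none fell (median 1.06, with 1.06 in replicates 1 and 3 and 0.78 in replicate 2). Dll3, a Notch ligand of newborn neurons, had 25.4, 37.5 and 28.3 CPM at D15, against 6.78, 8.73 and 4.93 CPM at D12 (2.16, SE 0.31, adjusted p 4.79e-05). The days did not overlap for it, and it changed by 2.19 in replicates 1 and 3 and by 2.10 in replicate 2.

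Hes6, which promotes neuronal differentiation, had 312, 304 and 295 CPM at D15 and 112, 132 and 135 CPM at D12 (1.27, SE 0.16, adjusted p 1.04e-05). Btg2, an antiproliferative gene of progenitors in their last division, had 278, 334 and 250.3 CPM at D15, against 106, 138 and 106 CPM at D12 (1.30, adjusted p 1.04e-05). Olig2, a basic helix-loop-helix factor of progenitors close to their last division, had 24.8, 13.9 and 25.8 CPM at D15 and 3.23, 6.10 and 2.78 CPM at D12 (2.41, SE 0.35, adjusted p 7.6e-05). Each of these was higher in every D15 library, and for Olig2 replicate 2 was the lowest at D15 and the highest at D12. Olig2 changed by 3.07 in replicates 1 and 3 (adjusted p 7.57e-05) and by 1.19 in replicate 2 (0.332), Hes6 by 1.30 and 1.203, and Btg2 by 1.32 and 1.28. Neurod4, a neurogenic factor of the outer and inner nuclear layers, had 72.8, 151 and 77.0 CPM at D15 and 19.8, 48.5 and 16.4 CPM at D12. Its rise of 1.83 (SE 0.34, adjusted p 0.00113) stood at 1.41 without D15 replicate 2 and at 2.47 without D12 replicate 2. The calls of Neurog2, Dll4, Insm1, Sox4, Penk and Rgs8 were lost without at least 1 library, each of them without D12 replicate 1, with adjusted p of up to 0.168. The ganglion cell determinant Atoh7 was at 73.3, 66.9 and 113 CPM at D15 and 46.9, 52.4 and 58.0 CPM at D12 (0.69, adjusted p 0.112).

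Of 20 Notch pathway genes 7 rose and none fell, with medians of 0.59 in replicates 1 and 3 and 0.41 in replicate 2. The effectors were among them. Hey1 had 59.4, 34.8 and 70.6 CPM at D15 and 19.8, 24.3 and 23.7 CPM at D12 (1.28, SE 0.26, adjusted p 0.00283). Heyl had 8.93, 22.9 and 11.1 CPM at D15, against 2.48, 4.49 and 2.27 CPM at D12 (2.21, SE 0.48, adjusted p 0.00459). Neither overlapped, with replicate 2 the lowest D15 library for Hey1 and the highest for Heyl. Hey1 changed by 1.58 in replicates 1 and 3 and by 0.52 in replicate 2, and Heyl by 2.07 and 2.34. Rbpj, the DNA-binding protein through which Notch acts, rose by 0.56 (SE 0.12, adjusted p 0.00346). The effector Hes5 had 111, 66.3 and 119 CPM at D15 and 26.7, 26.6 and 41.1 CPM at D12 (1.65, adjusted p 0.0106) and was not called without D15 replicate 3, D12 replicate 1 or D12 replicate 2 (up to 0.0573), and the calls of Lfng, Dlk1 and Numbl were lost without several single libraries (up to 0.183). The receptor Notch1 was at 358, 303 and 327 CPM at D15, against 143, 247 and 164 CPM at D12 (0.83, adjusted p 0.0877), and Hes1 had an adjusted p of 0.906.

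Of 22 genes of retinal progenitors 2 rose, 1 fell and 19 were not called, and none of the 3 calls held with each library left out. The median was 0.23 in replicates 1 and 3 and -0.06 in replicate 2. Pax6 was at 760.4, 616 and 813 CPM at D15 and 734, 691 and 728 CPM at D12 (adjusted p 0.997), and its days overlapped. The Wnt modulator Sfrp2 fell by 1.18 on the log2 scale (adjusted p 0.00749), with 318, 369.7 and 388 CPM at D15 and 823, 463 and 1153 CPM at D12, and was not called without D12 replicate 3 (-0.84, adjusted p 0.0798). It changed by -1.48 in replicates 1 and 3 (adjusted p 0.00366) and by -0.33 in replicate 2 (0.786). Dkk3 (0.93, adjusted p 0.0486) and Sox9 (1.00, adjusted p 0.0304) reached adjusted p of 0.143 and 0.133 with single libraries left out.

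Of 16 genes of the early temporal identity of progenitors 5 fell, none rose and 11 were not called. The medians were -0.37 in replicates 1 and 3 and -0.33 in replicate 2. Lin28a (chr4:134003330-134018841), an RNA-binding protein that blocks let-7 microRNAs, had 2.63, 2.91 and 2.73 CPM at D15, against 16.3, 10.6 and 22.5 CPM at D12 (-2.58, SE 0.30, adjusted p 3.99e-06). Its paralogue Lin28b had 13.8, 11.5 and 14.3 CPM at D15 and 31.7, 40.3 and 42.8 CPM at D12 (-1.54, SE 0.17, adjusted p 2.58e-06). Trim71, a let-7 target, had 27.8, 29.4 and 25.09 CPM at D15, against 54.7, 49.1 and 72.6 CPM at D12 (-1.10, SE 0.17, adjusted p 0.000123). All 3 were lower in every D15 library than in any D12 library, and their calls held with each library left out. In replicates 1 and 3 and in replicate 2 they changed by -2.85 and -1.87 for Lin28a, -1.40 and -1.82 for Lin28b and -1.27 and -0.74 for Trim71. Lin28a averaged 1210 ± 242 CPM at D4, 342 ± 46.6 CPM at D7 and 33.4 ± 5.23 CPM at D10, and 1.49 ± 0.394 CPM at D18 (SD, n = 3 each). The chromatin protein Hmga2 (-1.34, adjusted p 0.0199) was not called without D15 replicate 2, D15 replicate 3 or D12 replicate 3 (up to 0.12), and Foxp1 was not called without D12 replicate 3 (-0.57, adjusted p 0.0646).

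Of 21 amacrine cell genes 9 rose and none fell (median 0.89, with 0.86 in replicates 1 and 3 and 1.37 in replicate 2). Ptf1a, which commits progenitors to amacrine and horizontal fates, had 4.58, 5.81 and 7.46 CPM at D15 and 1.24, 0.930 and 0.340 CPM at D12 (2.80, SE 0.53, adjusted p 0.00191). The amacrine factor Tfap2c had 18.6, 33.0 and 27.3 CPM at D15, against 6.37, 9.92 and 7.55 CPM at D12 (1.73, SE 0.29, adjusted p 0.00036). Neither overlapped between the days. Genes of inhibitory transmission were in the same group. The GABA-synthesis enzyme Gad2 had 6.20, 11.1 and 18.4 CPM at D15 and 2.68, 3.54 and 3.52 CPM at D12 (1.87, adjusted p 0.000744), and the vesicular GABA transporter Slc32a1 rose by 3.08 and the glycine transporter Slc6a9 by 0.89. The amacrine factor Prdm13 rose by 1.66 (adjusted p 0.00647). Tfap2b and Barhl2 lost their calls without single libraries (adjusted p of up to 0.078 and 0.185).

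Of 9 tested horizontal cell genes 3 rose and 6 were not called (median 0.52, with 0.57 in replicates 1 and 3 and 0.63 in replicate 2). Ndrg1 had 81.9, 105 and 89.5 CPM at D15 and 23.0, 37.6 and 21.6 CPM at D12 (1.75, adjusted p 0.000826). The other rises were Sept4 (1.01, adjusted p 0.00454) and Calb1, which was not called without D15 replicate 1 (adjusted p 0.0508). Bipolar cell genes rose in 4 of 15 and fell in 2. The Purkinje and bipolar cell protein Pcp2 had 7.202, 8.78 and 10.6 CPM at D15, against 1.09, 0.559 and 0.740 CPM at D12 (3.46, adjusted p 1.68e-07), without overlap. The other rises were Lrit1, a synaptic protein of photoreceptors (2.77), Otx2, counted above, and the calcium-binding protein Scgn. Trpm1, a cation channel of ON bipolar and pigment cells, had 108, 59.8 and 60.1 CPM at D15 and 337, 199 and 387 CPM at D12 (-2.02, adjusted p 0.0288), without overlap, and changed by -2.11 in replicates 1 and 3 and by -1.73 in replicate 2. Scgn and the falls of Grik1 and Trpm1 lost their calls without single libraries (adjusted p of up to 0.0793, 0.0537 and 0.125). Among 15 Müller glia genes 4 rose, 1 fell and 10 were not called (median 0.14). Their summed level was 1632, 1503 and 1518 CPM at D15, against 1685, 1566 and 1787 CPM at D12. The rises were Crym, Aqp4, Gpr37 and Car2. Crym, a thyroid hormone-binding protein, had 9.24, 8.35 and 9.94 CPM at D15 and 0.967, 1.47 and 1.07 CPM at D12 (2.96, adjusted p 7.11e-06), while the fall of the retinaldehyde-binding protein Rlbp1 was not called without D15 replicate 2, D15 replicate 3, D12 replicate 1 or D12 replicate 3 (up to 0.127).

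Of 30 ganglion cell genes 1 rose and none fell, against 5.13% rises and 2.29% falls over all tested genes. The rise was in the acetylcholine receptor subunit Chrna6, which was called only with D15 replicate 2 in the fit (2.66, adjusted p 0.0065, against 1.36 and 0.167 without it). The ganglion cell factor Pou4f2 was at 32.9, 42.3 and 82.0 CPM at D15 and 31.2, 46.8 and 28.0 CPM at D12 (0.57, adjusted p 0.458), and Isl1 at 41.3, 57.7 and 106 CPM at D15 and 72.9, 72.5 and 46.7 CPM at D12. D15 replicate 3 was the highest library for both, and the days overlapped. The summed level of the list was 1319, 1385 and 2436 CPM at D15 and 1449, 1017 and 1037 CPM at D12. Its median change was 0.55, with 0.56 in replicates 1 and 3 and 0.44 in replicate 2, and 0.22 without D15 replicate 3. In replicates 1 and 3, 26 of the 30 changes were above 0. The neuronal tubulin Tubb3 showed the same high library, with 450.4, 427 and 763 CPM at D15 and 424, 273 and 416 CPM at D12 (0.56, adjusted p 0.415). The part of D15 replicate 3 in the neuronal genes below was not tested beyond leaving it out.

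Of 20 genes of the young neuron's cytoskeleton 3 rose. Their list had a median of 0.55, with 0.52 in replicates 1 and 3 and 0.51 in replicate 2, and 0.26 without D15 replicate 3. The collapsin response mediator Dpysl3 had 583, 590.4 and 782 CPM at D15 and 378, 297 and 272 CPM at D12 (1.04, adjusted p 0.00113), while Crmp1 and Rbfox3 lost their calls without single libraries (up to 0.344 and 0.101), and Crmp1 also with replicate number as a block, in all libraries (adjusted p 0.0621) and in the 6 (0.0576). Of 21 genes of synaptic vesicles and release 11 rose and none fell (median 0.88, with 0.84 in replicates 1 and 3 and 0.85 in replicate 2). Complexin 2 (Cplx2), which clamps vesicle fusion, had 199, 296 and 275 CPM at D15 and 81.0, 77.4 and 109 CPM at D12 (1.53, SE 0.19, adjusted p 1.04e-05). Complexin 3 (Cplx3), the form of ribbon and amacrine synapses, rose by 1.75 and complexin 1 (Cplx1) by 1.62. The fusion protein Snap25 had 63.0, 106 and 85.0 CPM at D15, against 37.5, 28.9 and 23.9 CPM at D12 (1.49, adjusted p 0.00326). The vesicle protein Syp had 64.6, 85.7 and 90.4 CPM at D15 and 31.3, 32.6 and 27.7 CPM at D12 (1.39, adjusted p 0.00337), and the calcium sensor Syt1 rose by 1.09. Each of these genes was higher in every D15 library, and the calls of Syn1, Bsn, Pclo and Sv2a were lost without single libraries (adjusted p of up to 0.192), for Sv2a only without D15 replicate 3. With replicate number as a block in the 6 libraries, Syn1 (0.0906) and Bsn (0.0621) also missed the threshold.

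Of 29 genes of DNA replication and the G1 to S transition 12 fell, none rose and 17 were not called (median -0.49, with -0.58 in replicates 1 and 3 and -0.39 in replicate 2), and 4 of the 12 calls, Mcm7, Mcm10, Rrm2 and Ccne1, held with each library left out. The replicative helicase subunit Mcm7 had 205, 243 and 207 CPM at D15 and 351, 319.6 and 379 CPM at D12 (-0.68, SE 0.13, adjusted p 0.00103). Cyclin E1 (Ccne1), which drives entry into S phase, had 22.8, 25.33 and 21.9 CPM at D15, against 48.2, 37.3 and 65.5 CPM at D12 (-1.11, SE 0.19, adjusted p 0.000408). The ribonucleotide reductase subunit Rrm2 had 109, 122.8 and 118 CPM at D15 and 205, 197 and 208 CPM at D12 (-0.80, SE 0.15, adjusted p 0.000872). The days did not overlap for these 3 genes. Mcm7 changed by -0.83 in replicates 1 and 3 and by -0.39 in replicate 2, Ccne1 by -1.35 and -0.56, and Rrm2 by -0.87 and -0.68. Mcm4, Cdc6, Rrm1, Tyms, Slbp, Pola1, Prim1 and Rfc3 fell by 0.49 to 0.95 on the log2 scale, and each missed the threshold without D15 replicate 1 or D15 replicate 3, and most without others too (adjusted p of up to 0.159). The cell cycle factor E2f1 was not called (0.47, adjusted p 0.146), nor was the replication clamp Pcna, with 232, 298 and 337 CPM at D15 and 367, 415 and 420.5 CPM at D12 (adjusted p 0.163).

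The letters TTCCCGC, the core of the site bound by E2F factors, were present on either strand in 1260 of 27025 promoters (4.66%) and in 6 of the 11 called replication genes with a promoter sequence (54.5%, exact 95% interval 23.4% to 83.3%), against 4 of 13 that were not called (30.8%). The 6 were Mcm7, Cdc6, Rrm1, Pola1, Prim1 and Rfc3. The interval again covers counting error only and is no test against all promoters. The promoter of the origin-licensing gene Cdc6, which fell by 0.63 on the log2 scale (adjusted p 0.0333, or up to 0.146 without D15 replicate 1, D15 replicate 3, D12 replicate 1 or D12 replicate 3), is shown as an example, with the reverse complement of these letters at -138 in capitals.
Cdc6, chr11:98907901-98908200, plus strand: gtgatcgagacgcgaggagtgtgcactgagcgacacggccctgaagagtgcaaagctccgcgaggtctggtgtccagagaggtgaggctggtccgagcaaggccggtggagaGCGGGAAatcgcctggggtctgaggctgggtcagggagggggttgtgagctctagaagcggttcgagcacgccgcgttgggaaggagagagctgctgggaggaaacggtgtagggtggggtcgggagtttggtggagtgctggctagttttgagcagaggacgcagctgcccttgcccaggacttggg

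Genes of mitosis fell in 3 of 25 and rose in none, against 2.29% falls and 5.13% rises over all tested genes. The kinesin Kif20a was at 119, 85.3 and 104 CPM at D15 and 168, 178 and 147 CPM at D12 (-0.68, adjusted p 0.00656) and was not called without D15 replicate 2 (adjusted p 0.0522), and Cenpe and Kif11 also lost their calls without single libraries (up to 0.145 and 0.214), Kif11 with replicate number as a block in the 6 libraries too (0.0717). All 3 were called in replicate 2 alone and none in replicates 1 and 3 alone. The proliferation marker Mki67 was at 619.9, 461 and 495 CPM at D15, against 785, 884 and 573 CPM at D12 (-0.51, adjusted p 0.0788), and Top2a at 696, 521 and 699.9 CPM at D15 and 853, 1046 and 749 CPM at D12 (adjusted p 0.138). For both the largest gap between the days was in replicate 2.

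The libraries were made from dissected neural retina, and of 15 tested pigment epithelium genes 8 fell, none rose and 7 were not called (median -1.39, with -1.38 in replicates 1 and 3 and -1.78 in replicate 2). Their summed level was 262, 96.9 and 194 CPM at D15, against 574, 827 and 684 CPM at D12. Without Ttr, a retinol carrier that held most of the sum in D12 replicate 2, it was 228, 93.5 and 155 CPM at D15, against 533, 306 and 680.1 CPM at D12. The pigment genes thus ran lower at D15 beside every result above, and their part in those results was not tested. The melanin-synthesis enzyme Dct had 32.4, 17.4 and 22.8 CPM at D15 and 81.2, 59.7 and 113 CPM at D12 (-1.80, SE 0.29, adjusted p 0.000278). The pigment transporter Slc24a5 had 7.65, 7.14 and 6.29 CPM at D15, against 15.5, 12.7 and 17.8 CPM at D12 (-1.13, SE 0.20, adjusted p 0.000682). The tetraspanin Tspan10 had 4.295, 1.49 and 2.76 CPM at D15 and 14.3, 7.203 and 21.3 CPM at D12 (-2.31, adjusted p 0.00523). These 3 did not overlap between the days. Dct changed by -1.81 in replicates 1 and 3 and by -1.78 in replicate 2, and Slc24a5 by -1.26 and -0.84. The melanosome genes Mlana and Rab27a fell by 2.52 and 1.19 on the log2 scale. The melanosome matrix protein Pmel had 86.6, 20.5 and 54.5 CPM at D15 and 259, 112 and 278 CPM at D12 (-2.005, adjusted p 0.0174). Pmel, Slc45a2 and Rab38 lost their calls without single libraries, Pmel without D15 replicate 2, D15 replicate 3, D12 replicate 1 or D12 replicate 3 (up to 0.0906), and Slc45a2 and Rab38 without D12 replicate 3 among others (0.0664 and 0.282). Ttr was at 34.8, 3.46 and 39.3 CPM at D15, against 41.1, 521 and 3.68 CPM at D12, so 1 library, D12 replicate 2, held most of it.

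Ciliary margin genes, which mark the edge between neural retina and pigmented tissue, fell in 6 of 17 and rose in none (medians of -0.48 in replicates 1 and 3 and -0.51 in replicate 2). Otx1, Wnt2b, Gas1, Bambi, Gja1 and the pigment cell factor Mitf fell by 0.70 to 2.08 on the log2 scale, and each lost its call without D15 replicate 3 or D12 replicate 3 (adjusted p of up to 0.249). Gli1, the readout of hedgehog signalling, was the 1 hedgehog gene of 12 that was called, against 7.41% of all tested genes. It had 2.39, 2.00 and 1.74 CPM at D15 and 22.4, 5.48 and 6.14 CPM at D12, a change of -2.48 (SE 0.45, adjusted p 0.000963) that was -1.51 (adjusted p 0.021) without D12 replicate 1. All D15 libraries lay below all D12 libraries, and the change was -2.80 in replicates 1 and 3 and -1.47 in replicate 2. Of 17 genes of dorsal and ventral retina 1 fell, against 2.29% of all tested genes. It was the retinoic acid-synthesis enzyme Aldh1a3, which was not called without D15 replicate 1, D15 replicate 3 or D12 replicate 3 (up to 0.0835). The dorsal enzyme Aldh1a1 was at 3469.7, 2663 and 2988 CPM at D15, against 4895, 4983 and 6489.7 CPM at D12 (-0.84, adjusted p 0.124).

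Genes of the amino acid and endoplasmic reticulum stress response rose in 6 of 13 and fell in none (median 0.72, with 0.63 in replicates 1 and 3 and 0.72 in replicate 2). The stress factor Ddit3 had 34.6, 37.2 and 39.3 CPM at D15 and 21.3, 17.6 and 17.9 CPM at D12 (0.97, SE 0.14, adjusted p 5.75e-05). Asparagine synthetase (Asns) had 198, 208 and 192 CPM at D15, against 141, 130.0 and 91.5 CPM at D12 (0.72, adjusted p 0.00365). The days did not overlap for either, and Trib3 and Sesn2 rose by 1.51 and 0.85. Chac1 missed the threshold without D12 replicate 3 (adjusted p 0.0659), and Stc2 missed it without 4 of the 6 libraries (up to 0.203) and with replicate number as a block in all libraries (0.0621). Of 15 apoptosis genes the cell cycle inhibitor Cdkn1a rose, with 129, 129 and 66.1 CPM at D15 and 37.0, 31.9 and 24.1 CPM at D12 (1.80, SE 0.35, adjusted p 0.0016), as did Hrk, which missed the threshold without D15 replicate 3 (adjusted p 0.063).

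Of 21 axon guidance genes 5 rose and 2 fell, against 5.13% rises and 2.29% falls over all tested genes. The ephrin receptor Epha3 (1.43, adjusted p 0.00192), the adhesion protein Cntn1 (1.19, adjusted p 0.00177) and the ephrin receptor Ephb1 (1.18, adjusted p 0.00744) rose, and the Slit receptor Robo1 fell by 0.90 on the log2 scale (adjusted p 0.005). Plxna2, Nrcam and Epha4 lost their calls without single libraries (up to 0.14). Few genes of other signalling lists were called, and none of these calls held with each library left out. Among them were Tgm2 in the retinoid response, Fgf3 and Fgfr2 in the FGF pathway, Igfbp2 and Pik3r1 in IGF signalling and Ier3 among immediate early genes, the last also not called with replicate number as a block in the 6 libraries (0.0541).

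Markers of other tissues gave few calls. Of the lens list 6 of 11 genes were below the count filter and the summed level was 3.09, 9.77 and 3.28 CPM at D15 and 3.89, 6.88 and 3.19 CPM at D12. Microglia and blood genes summed to 4.79, 5.67 and 5.29 CPM at D15, against 7.84, 6.03 and 6.95 CPM at D12. Called members were C1qa and Csf1r for microglia, Erbb3 and Mbp for other glia, Eomes and Fezf2 for the forebrain, both of which retinal cells also express, Sall4 for pluripotent cells and Prrx1 for mesenchyme, and of these C1qa and Erbb3 held with each library left out. Prrx1 was also not called with replicate number as a block (adjusted p 0.0525 in all libraries and 0.124 in the 6). Endothelial genes summed to 151, 193 and 142 CPM at D15 and 112, 127 and 69.9 CPM at D12. The part of these tissues in the results above was not tested.

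**Figure D3:**
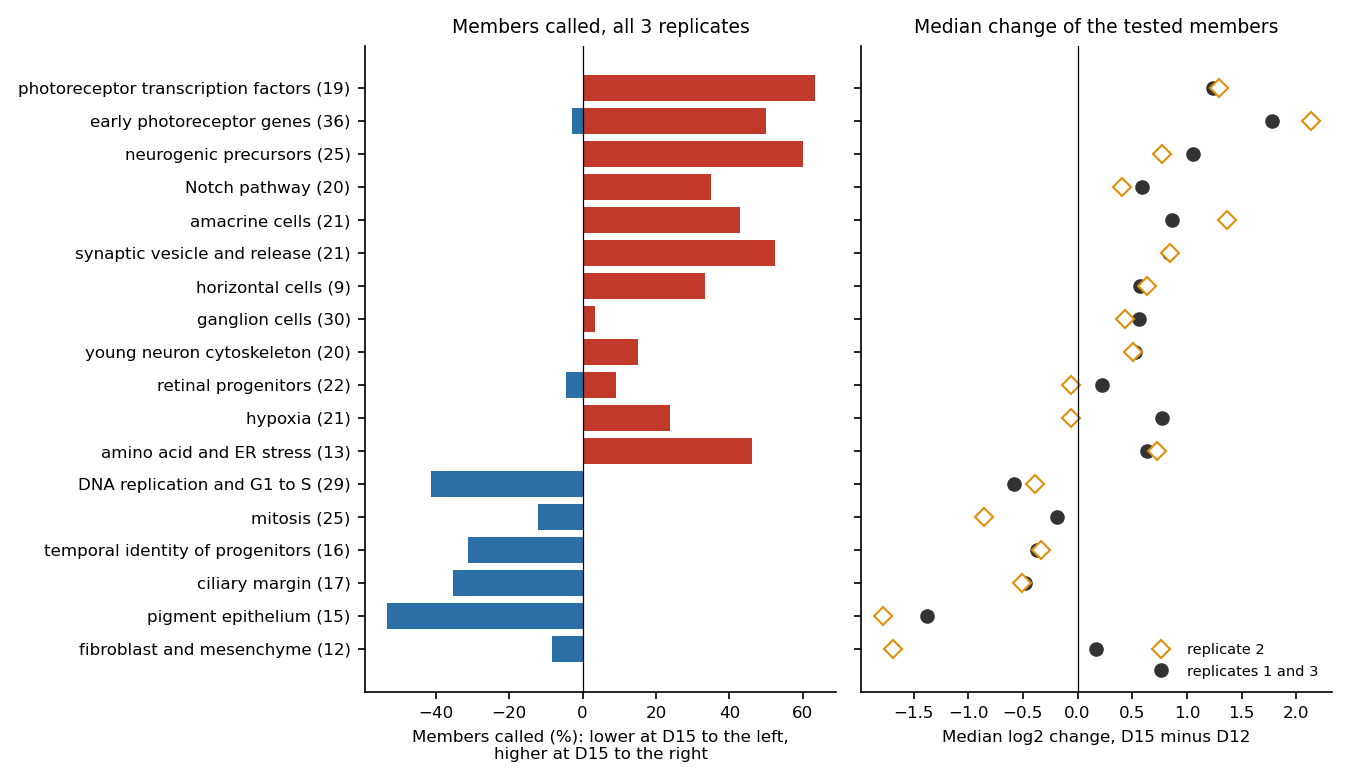
For 18 lists, with the number of tested members in brackets, the left panel gives the percentage of members that rose (right of 0) or fell (left of 0) at D15 over all 3 replicates. The right panel gives the median log2 change, D15 minus D12, in replicate 2 (open diamonds) and in replicates 1 and 3 (circles), which lie close for the photoreceptor factors (1.30 and 1.24) and apart for hypoxia (-0.06 and 0.77), mitosis (-0.86 and -0.19) and mesenchyme (-1.69 and 0.16).

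Set apart, replicate 2 moved with replicates 1 and 3 in most of their calls. Of the 542 genes that rose in replicates 1 and 3, 509 were also above 0 in replicate 2. Their median was 1.14 in replicate 2 and 1.49 in replicates 1 and 3, whose values chose these genes. Of the 193 that fell, 159 were below 0 in replicate 2, with medians of -0.46 in replicate 2 and -0.86 in replicates 1 and 3. The test of the difference between the 2 changes called 0 of 19897 genes by edgeR's quasi-likelihood test (0%), while 1128 (5.67%) had an unadjusted p below 0.05, and DESeq2 called 13. On simulated counts, with changes seeded in replicate 2 only, this edgeR test recovered 2% of differences of log2 size 1 and 54% of size 2, so its count of 0 does not show that the classes moved alike. In each list, every member called over all 3 replicates had the same direction in both classes, whose libraries made up that call.

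Of the 19 photoreceptor transcription factors 11 changes were smaller and 8 larger in replicate 2, and none differed at an unadjusted p below 0.05. Of the 36 early photoreceptor genes 12 were smaller and 24 larger in replicate 2, and 5 (13.9%) differed at an unadjusted p below 0.05, against 5.67% of all tested genes. Over all 19897 genes 9567 were smaller in replicate 2. The 36 include genes with a mean under 1 CPM on both days, as given above. Aipl1, a chaperone of the photoreceptor phosphodiesterase, was the 1 called gene among those 5 early photoreceptor genes, with a change of 2.79 in replicate 2 and 1.53 in replicates 1 and 3.

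**Figure D4:**
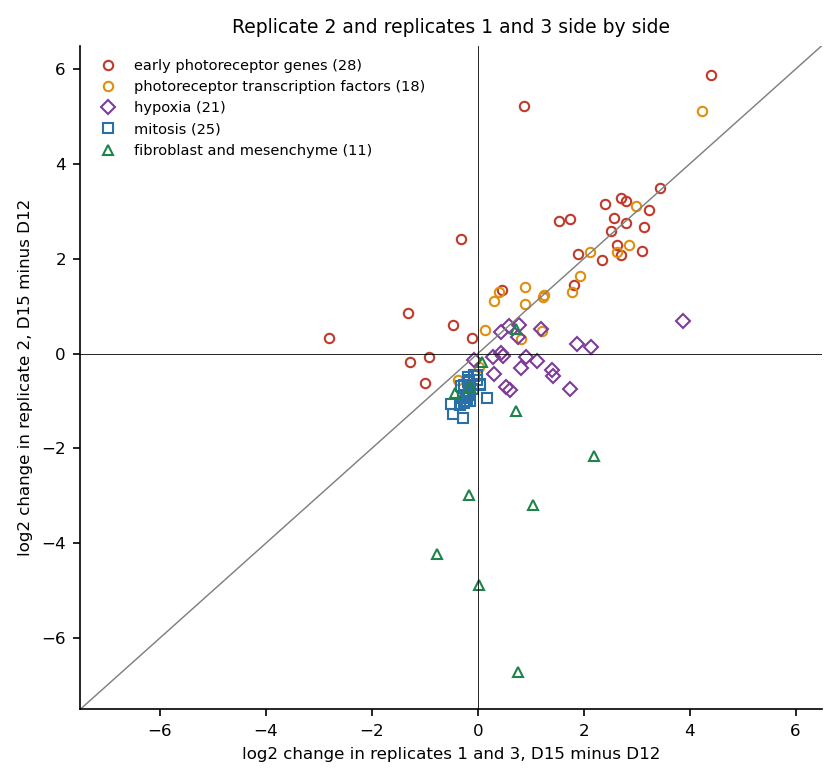
Log2 change, D15 minus D12, in replicates 1 and 3 (x axis) and in replicate 2 (y axis) for members of 5 lists with a mean of at least 1 CPM on either day, with the line of equality. The photoreceptor genes scatter around the line, whereas 20 of the 21 hypoxia genes (diamonds), the 25 mitosis genes (squares) and the mesenchyme genes (triangles) lie below it.

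Hypoxia genes split between the replicate classes. Of 21, 5 rose over all 3 replicates, and none of these calls held with each library left out. In replicate 2, 20 of 21 changes were smaller than in replicates 1 and 3, against 9567 of 19897 over all tested genes. Replicate 2 has 1 library a day and the genes of a list are not independent, so this count does not measure how repeatable the split is. The summed level of the hypoxia list was 15618, 10871 and 15445 CPM at D15 and 11276, 10679 and 10467 CPM at D12. Outside the list, the neuronal glucose transporter Slc2a3 had 412, 160.0 and 413 CPM at D15, against 173, 226 and 146 CPM at D12. Its change was 1.37 in replicates 1 and 3 (adjusted p 0.00214) and -0.50 in replicate 2, a difference of -1.87 with an unadjusted p of 0.000212 and an adjusted p of 0.47. The vasodilator peptide adrenomedullin (Adm) had 25.4, 1.80 and 27.1 CPM at D15 and 2.26, 1.13 and 1.31 CPM at D12 (3.53 over all 3 replicates, adjusted p 0.00953, or 0.0516 without D12 replicate 3). The growth factor Vegfa, at 454, 305 and 412 CPM at D15 and 241, 212 and 139 CPM at D12, was not called without D15 replicate 1 or D12 replicate 3 (up to 0.0758), and Ddit4, Egln3 and Aldoa lost their calls too (up to 0.303, 0.187 and 0.136). With replicate number as a block in the 6 libraries the adjusted p was 0.0731 for Ddit4, which also missed the threshold with the block in all libraries (0.0658), and 0.0508 for Egln3. The mitophagy receptor Bnip3 was at 436, 226 and 515 CPM at D15, against 189, 313 and 167 CPM at D12, so D15 lay above D12 in replicates 1 and 3 and below it in replicate 2.

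The mitosis list also split, with a median change of -0.86 in replicate 2 and -0.19 in replicates 1 and 3. All 25 changes were lower in replicate 2 than in replicates 1 and 3, against 9567 of 19897 over all tested genes. All 12 mesenchyme genes were also lower in replicate 2. As for hypoxia, these counts rest on 1 replicate 2 library a day and on genes that are not independent. D12 replicate 2 held more mesenchyme RNA than its neighbours, and the summed level was 147, 88.4 and 121 CPM at D15 and 116, 195 and 128 CPM at D12. Lumican (Lum) was at 1.24, 0.108 and 1.05 CPM at D15, against 0.972, 11.8 and 0.341 CPM at D12. The lysophospholipase Enpp2 had the smallest p of the difference over all genes, with 7.97, 7.89 and 8.16 CPM at D15 and 5.42, 55.3 and 4.75 CPM at D12. Its change was -2.81 in replicate 2 and 0.66 in replicates 1 and 3, and the difference of -3.48 had an unadjusted p of 1.21e-05 and an adjusted p of 0.241. The part of these markers in the other replicate 2 values was not tested.

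By the fixed rule, the differences with the smallest p among genes of at least 10 CPM were, below 0, Enpp2, Slc2a3, Npepps, Plod2 and Acp6, and, above 0, Klhl21, Nolc1, Zfand2a, Ephb3 and Slc35a4, none with an adjusted p below that of Enpp2. Plod2, which hydroxylates collagen lysines, was at 144, 75.3 and 152 CPM at D15 and 88.7, 153 and 62.1 CPM at D12. The ubiquitin ligase adaptor Klhl21 was at 11.2, 15.07 and 9.15 CPM at D15, against 12.5, 7.54 and 19.6 CPM at D12. For Plod2 the 2 replicate classes moved in opposite directions, 0.97 in replicates 1 and 3 and -1.02 in replicate 2, and for Klhl21 they were -0.66 and 1.00. The ephrin receptor Ephb3 had 24.6, 26.6 and 25.13 CPM at D15 and 20.8, 9.79 and 24.0 CPM at D12, so 1 library, D12 replicate 2, was low.

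**Figure D5:**
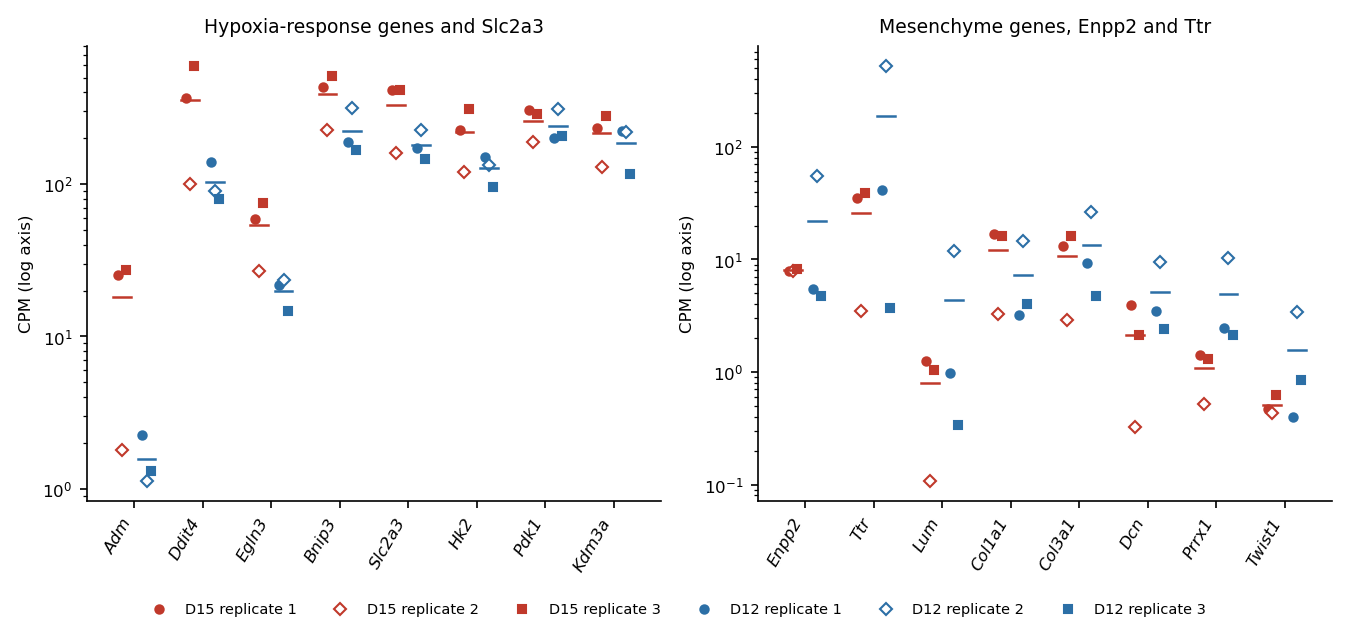
CPM on a log axis for 7 hypoxia genes and Slc2a3 (left) and for 6 mesenchyme genes, Enpp2 and Ttr (right), with D15 libraries (red) left of D12 libraries (blue), replicate 2 as open diamonds and means as bars. Replicate 2 is the lowest D15 library for all 8 genes on the left, and the highest D12 library for all 8 genes on the right.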

How the data were processed

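Per the submitters' processing notes, the authors trimmed reads with Trimmomatic 0.36 and estimated abundances with kallisto 0.42.4 on GRCm38.p4, and how transcript values became gene values is not given in the sources used here. The deposited gene table holds estimated counts, not scaled to a common total, which were rounded to whole numbers here. The authors' second deposited table holds a normalised CPM signal per gene, with edgeR named in the notes, and served only as an alternative. The 3 columns in each table that match no sample, 9 in all over 3 tables, and the transcript table were not used. No row lacked a gene name.

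Genes were kept by filterByExpr with days as groups (minimum count 10, minimum total 15). With edgeR 4.0.16 in R 4.3.3, TMM factors and a quasi-likelihood fit of 1 mean per day over all 30 libraries gave D15 against D12, and a second fit gave replicate 2 of D10 to D25 means of its own. CPM are estimated counts over the TMM-scaled library size. Adjusted p are Benjamini-Hochberg over all tested genes, called below 0.05. limma 3.58.1 and DESeq2 1.42.0 served as alternatives. The labels call the replicates biological without saying what was separate, so p-values measure the spread between these samples. Intervals of shares are exact binomial and cover counting error only.

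The members, the 37 gene lists and the tests were chosen with earlier results of these data known. Named genes were the 10 largest rises and 10 largest falls among called genes without overlap and with a mean of at least 10 CPM on the higher day, leaving out predicted genes, pseudogenes and copies of histone, ribosomal and mitochondrial genes, then called list members, every photoreceptor transcription factor, and the 5 differences of each sign with the smallest p in the replicate 2 contrast. Other list members are named with their values. Some genes that these rules name are not reported here. List members were matched by symbol, and a symbol with several identifiers took the one with most counts, so counts of such genes (Dlk1 among those named) may be split between copies.

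The labels do not say whether D15 and D12 samples of the same replicate number belong together, and the main fit does not pair them. On log2 of CPM plus 1 over 14736 genes, deviations from the day means correlated at 0.253, 0.393 and 0.230 for replicates 1, 2 and 3 of the 2 days, against -0.349 to 0.216 for other pairs. These correlations are descriptions across genes, which are not independent. The 0.216 was that of D15 replicate 3 with D12 replicate 1, close to the 0.230 of replicate 3 of both days. Only replicate 2 was thus clearly told apart by its number.

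On counts simulated for 19897 genes, the comparison of all 3 replicates recovered 56% of seeded changes of log2 size 1 and 96% of size 2, with 2 false calls. The seeded genes, here and in the other simulated tests, were drawn only from those above a minimum expected count. Genes with few counts are thus not covered by these rates. Replicates 1 and 3 recovered 38% and 93% with 5 false calls, and replicate 2 alone 12% and 70% with 6. The test of the difference between these classes, with changes seeded in replicate 2 only, recovered 2% of size 1 and 54% of size 2, with 3 false calls. With equal changes seeded in both classes it made 0 calls.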

Additional observations from a re-analysis of the deposited data

How the results depend on the processing

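The counts of calls moved more with the settings than the direction of the 177 called genes that were listed or named. The direction of the other called genes was not followed. The 455 falls became 208 with library size only, 798 with DESeq2, 910 without the D4 libraries and 1006 with replicate class as a term in D10 to D25, where rises were 1513, and with only replicates 1 and 3 there were 450 rises and 117 falls. With 1 library left out there were 641 to 791 rises and 164 to 333 falls. In replicates 1 and 3, library size only gave 335 rises and 56 falls, DESeq2 gave 868 and 412, and leaving out 1 library, so that a lone library was assumed to vary like the other groups, gave 127 to 258 and 24 to 84. In replicate 2 the 37 falls became 14 with library size only, 56 without a filter and 57 with at least 1 CPM in 3 libraries. The difference between the replicate classes gave Enpp2, Col12a1 and Kcne2 (3 genes) without a filter and 13 with DESeq2. Of list members, counting each gene once, 116 rose and 51 fell. The falls became 80 with a replicate block in the 6 libraries, 85 with the class term and 24 to 43 with 1 library left out, and only replicates 1 and 3 gave 70 rises and 20 falls. The cause of these shifts was not tested. The replicate block gave 1069 rises and 463 falls in the fit of all libraries and 1044 and 498 in the 6, and in the first fit it ended the calls of Crmp1, Ddit4, Stc2 and Prrx1 of 177 listed or named genes and of no other. In the 6 libraries it ended 11 of 173, those of Bsn, Clic6, Crmp1, Ddc, Ddit4, Egln3, Ier3, Kif11, Myc, Prrx1 and Syn1 (adjusted p 0.0508 to 0.125). None of the 177 reversed under the settings run, and 39 to 65 were not called with 1 library left out, against 37 with library size only, 2 with DESeq2 and 79 with only replicates 1 and 3. The uncalled Tbx2 (-0.06) changed sign with only replicates 1 and 3 (0.025) and ranged between -0.23 and 0.11 with 1 library left out. With 100 bases before the start in place of 250, TAATCC was in 30.8% of the called early photoreceptor promoters and 16.7% of the called factor promoters (3.07% of all), and TTCCCGC in 27.3% of the called and 30.8% of the uncalled replication promoters (2.61% of all), so the called share was then the lower one. The settings for replicate 2, the single libraries left out in the replicate classes and DESeq2 there were added after seeing the data. Depth limits genes under about 1 CPM, such as Rcvrn, for which a difference was not detectable.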
